A study of Citrus reticulata with 36 samples.

Results

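Nucellus was compared with integument at 28 days after pollination (DAP) in ovules of ponkan mandarin (Citrus reticulata). Cells of both tissues had been collected from sections with a laser (laser capture microdissection), and their RNA was amplified and sequenced. The comparison rests on 12 of the 36 libraries of the study, those labelled with the 28 DAP stage, and these formed 4 groups of 3 libraries. The groups were nucellus of Huagan No.4 ponkan (MT), nucellus of Egan No.1 ponkan (WT), integument of MT and integument of WT. The labels name no treatment or transgene, and they do not spell out MT, which serves here only as a name. The same tissues at 18 and 32 DAP supplied the other 24 libraries. Libraries of a group are labelled as biological replicates, without a statement of whether each came from its own plant, so p-values measure the spread between these libraries. The deposited tables write the stages as the digits 1 to 3, and 1, 2 and 3 were taken as 18, 28 and 32 DAP because the study lists its stages in that order.

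The nucellus is the maternal tissue inside the ovule that surrounds the embryo sac, and in many Citrus it can also form embryos directly from its own cells. The integument encloses the nucellus and becomes the seed coat. Both are tissues of the mother plant. The deposited feature identifiers (such as c92660_g1) carry no gene names, and the files do not pair them with any. The tissue labels could therefore not be checked against known marker genes, and the sets below are described by level, size and recurrence rather than by function.

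The libraries of 28 DAP held between 15972101 and 20947644 counts and between 55947 and 67188 features above 0. A count of 0 allows up to 3 counts, for counting error only. On unscaled library totals this corresponds to between 0.143 and 0.188 CPM (counts scaled to the same total in each library) in these libraries. The CPM of single features below also carry the TMM scaling between libraries, unless stated. On that scale 3 counts came to 0.25 CPM in WT nucellus replicate 1. Among these 12, the WT nucellus library of replicate 1 stood apart. Its 10 most abundant features took 33.8% of its counts, against 10.7% to 19.2% in the other 5 nucellus libraries and 15.2% to 24.4% in the 6 integument libraries. Its 100 most abundant features took 51.7%, against 20.5% to 32.9% in the other nucellus libraries and 26.7% to 39.6% in the integument. It had the lowest number of features above 0 of the 12 and a TMM scaling factor of 0.592, against 0.83 to 1.13 in the other 11. Log2 CPM in this library correlated across features at 0.806 and 0.817 with the other WT nucellus libraries, which correlated at 0.941 with each other. Results are given with this library, and without it where its omission changed them. Of the other 24 libraries, WT nucellus replicate 3 of 18 DAP had the highest shares, 28.9% for 10 and 45.6% for 100 features. Its TMM factor of 0.791 was the lowest of the 24. It was kept in the comparisons of stages, except where each library was left out in turn.

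**Figure D1:**
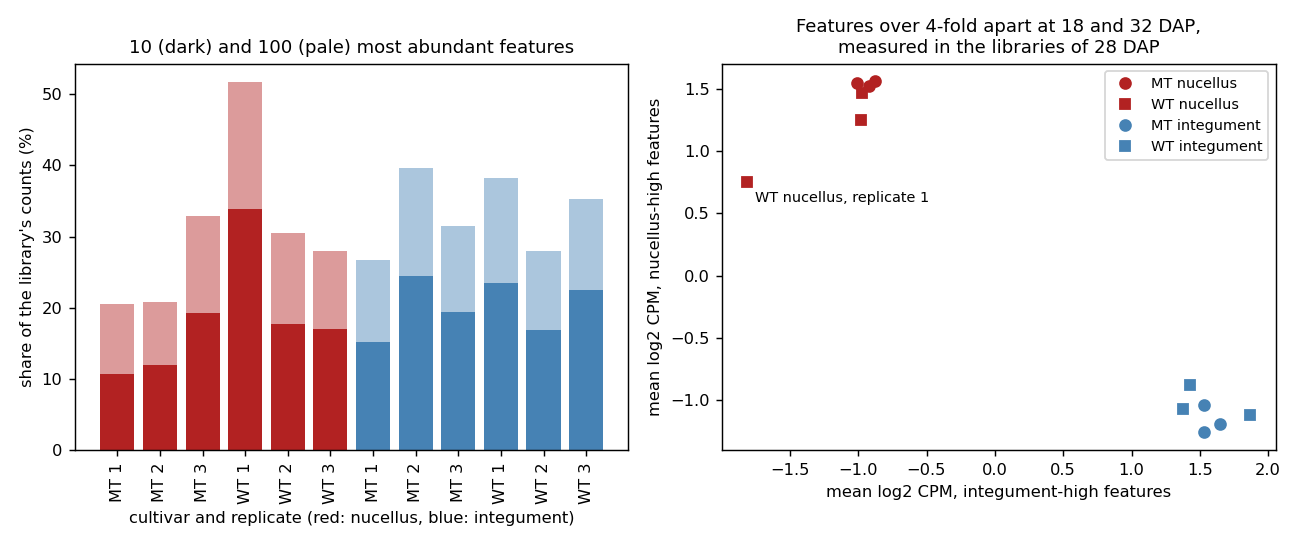
Left: share of each library's counts (%) taken by its 10 (dark) and 100 (pale) most abundant features, for the 12 libraries of 28 DAP, nucellus in red and integument in blue. Right: mean log2 CPM of features over 4-fold higher in the nucellus (vertical axis) and over 4-fold lower in the nucellus (horizontal axis) at 18 and 32 DAP, measured in the libraries of 28 DAP. WT nucellus replicate 1 has the tallest bar, 51.7%, and lies at lower values on both axes than the other 5 nucellus libraries, on the nucellus side of the integument libraries.

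At 28 DAP, nucellus and integument differed in 9979 of 57344 tested features (17.4%) as the mean over both cultivars (edgeR quasi-likelihood test, Benjamini-Hochberg adjusted p under 0.05). The nucellus was higher for 4115 features (7.18%) and lower for 5864 (10.2%). Large differences lay mostly on the integument side. With a feature at 0 in every library of one tissue set at its bound against 3 counts per library, 1021 called features were more than 4-fold higher in the nucellus and 2893 more than 4-fold lower. At more than 16-fold the numbers were 313 higher and 914 lower. The median absolute log2 fold change of the called features was 1.60 with those bounds and 1.63 as fitted. In bulk captures, a larger number of cells of one type cannot be told apart from more RNA per cell.

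The feature c95166_g1 had 1 of the 2 largest positive tissue differences among called features at or above the median level with no overlap between the tissues. It had 563, 756 and 500 CPM in the MT nucellus and 1240, 1010 and 636 CPM in the WT nucellus, against 3.29, 0.903 and 1.07 CPM in the MT integument and 1.12, 3.65 and 3.31 CPM in the WT integument. No nucellus library came near an integument library, and its log2 fold change was 8.45 ± 0.67 (SE; edgeR, adjusted p = 5.7e-10). On the deposited FPKM scale, which divides by feature length, c95166_g1 had a nucellus mean of 765 and an integument mean of 2.3.

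The feature c92660_g1 had 91.5, 74.1 and 67.7 CPM in the MT nucellus and 459, 54.9 and 56 CPM in the WT nucellus, against 0.167, 0 and 0.215 CPM in the MT integument and 0.617, 0.72 and 0.768 CPM in the WT integument. The tissues did not overlap, but 459 CPM came from the WT nucellus library of replicate 1 and the other 5 nucellus libraries lay within 54.9 to 91.5 CPM. The log2 fold change of c92660_g1 came to 7.74 ± 0.56 without that library and 8.60 ± 0.71 with it (edgeR, adjusted p = 1.4e-10 and 1.1e-09).

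In the opposite direction, c51494_g1 had 1.05, 2.14 and 0.815 CPM in the MT nucellus and 0.333, 0.707 and 0.94 CPM in the WT nucellus, against 90.1, 137 and 141 CPM in the MT integument and 67.3, 127 and 133 CPM in the WT integument. The tissues did not overlap. The tissue difference of c51494_g1 was -6.91 ± 0.39 log2 units (SE; adjusted p = 7.4e-13, edgeR). The feature c89088_g1 had 1.22, 0.143 and 0.233 CPM in the MT nucellus and 0.167, 0.326 and 0.608 CPM in the WT nucellus, against 58, 33.7 and 38.9 CPM in the MT integument and 85, 31.3 and 146 CPM in the WT integument. Again the tissues did not overlap, and they differed by -7.08 ± 0.67 log2 units (SE; adjusted p = 1.2e-08, edgeR).

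**Figure D2:**
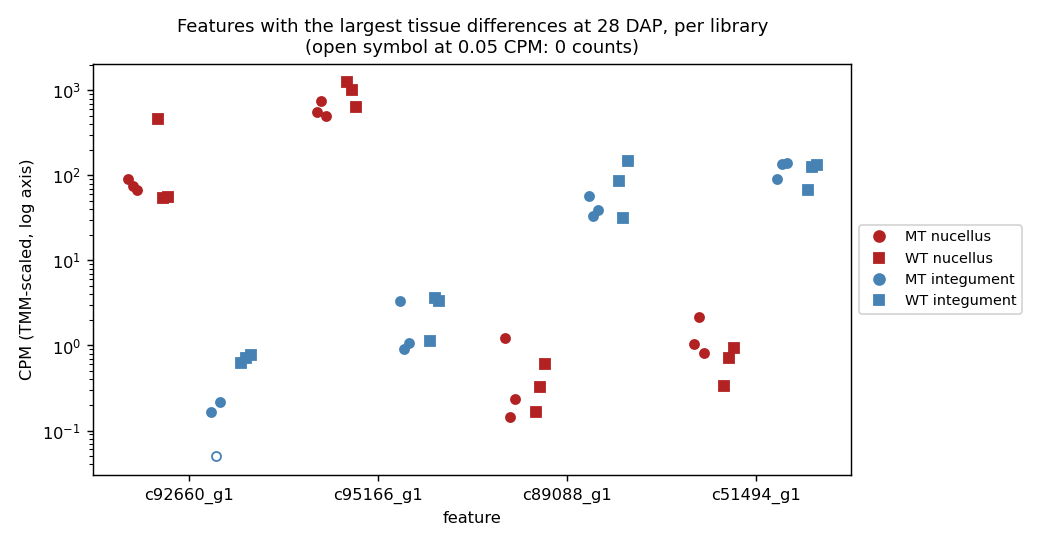
CPM (TMM-scaled, log axis) of the 4 features named for the mean over both cultivars, 1 point per library of 28 DAP, nucellus in red to the left of integument in blue, circles for MT and squares for WT. Open symbols stand for 0 counts and are drawn at 0.05 CPM. No nucellus point of a feature overlaps an integument point of the same feature, and c92660_g1 has 1 nucellus library, at 459 CPM, far above the other 5.

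Among all tested features, 1377 (2.4%) had their lowest nucellus library above their highest integument library, and 2773 (4.84%) had their highest nucellus library below their lowest integument library. With 3 libraries against 3, the same held for 7380 (12.9%) and 8767 (15.3%) within MT, and for 4716 (8.22%) and 6067 (10.6%) within WT. The 4115 features called higher in the nucellus made up 13.5 ± 1.9% of the counts in nucellus libraries and 5.86 ± 0.46% in integument libraries (SD, n = 6 each). The 5864 called lower made up 8.13 ± 2% in nucellus libraries and 18.2 ± 3% in integument libraries. The same libraries chose the features, so these shares are a description.

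Called features occurred at every level. Of the 331 tested features averaging over 100 FPKM at 28 DAP, 39 were called higher in the nucellus and 66 lower, 31.7% in all. Of the 18305 features under 1 FPKM, 669 were called higher and 1442 lower, 11.5% in all. Fewer counts stand behind each value of the second class. Among the most abundant features the larger differences ran the other way from the whole: 20 were over 4-fold higher in the nucellus and 12 over 4-fold lower.

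Within MT, the tissue difference was called for 4153 features (7.24%), of which 1564 were higher in the nucellus (2.73%) and 2589 lower (4.51%; edgeR, adjusted p under 0.05). Same-numbered libraries were also taken as pairs, by adding the pair to the edgeR model as a block, which was not limited to this stage. With that block 7692 were called, 3257 higher and 4435 lower (13.4%). The feature c28486_g1 had 153, 244 and 109 CPM in the MT nucellus, against 0.668, 0.241 and 0.161 CPM in the MT integument (log2 fold change 8.86 ± 0.79; edgeR, adjusted p = 2.8e-08). The feature c18891_g1 had 464, 360 and 282 CPM in the MT nucellus, against 2.01, 0.241 and 0.215 CPM in the MT integument (8.79 ± 0.94; edgeR, adjusted p = 5.2e-07). Both features were abundant in each MT nucellus library and at 2.01 CPM or less in each MT integument library.

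Lower in the MT nucellus was c97589_g1, with 1.16, 1.47 and 0.407 CPM, against 115, 139 and 89 CPM in the MT integument (log2 fold change -6.79 ± 1.21; edgeR, adjusted p = 0.00051). The feature c64586_g1 had 0.995, 0.475 and 1.4 CPM in the MT nucellus, against 97.8, 118 and 72 CPM in the MT integument (-6.66 ± 1.21; edgeR, adjusted p = 0.00064). These MT features also had no overlap between the tissues in WT: c97589_g1 reached at most 0.719 CPM in the WT nucellus against at least 8.59 CPM in the WT integument, and c64586_g1 at most 0.829 CPM against at least 28.2 CPM. The number of MT calls leans on single libraries, with 2182 called without MT nucellus replicate 2 and 2595 without MT nucellus replicate 3.

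Within WT, it was called for 5188 features (9.05%), of which 1969 were higher in the nucellus (3.43%) and 3219 lower (5.61%; edgeR, adjusted p under 0.05). With same-numbered libraries as pairs, 7892 were called, 3039 higher and 4853 lower (13.8%), and as the mean over both cultivars 13743 (24%). The most abundant feature named here, c88406_g1, had 5330, 7660 and 3020 CPM in the WT nucellus, against 5.05, 26.9 and 21.3 CPM in the WT integument (log2 fold change 8.23 ± 1.15; edgeR, adjusted p = 2.4e-05). In MT its mean was 5080 ± 385 CPM for the nucellus, against 15.1 ± 14.7 CPM for the integument (SD, n = 3 each), and its WT nucellus mean of 5340 ± 2320 CPM differed from that of MT by less than the spread between libraries. The feature c45637_g1 had 473, 246 and 127 CPM in the WT nucellus, against 0.954, 0.664 and 1.18 CPM in the WT integument (8.23 ± 0.71; edgeR, adjusted p = 1e-08).

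Lower in the WT nucellus was c101160_g1, with 0.0833, 0.707 and 0.608 CPM, against 35.5, 79.2 and 83.5 CPM in the WT integument (log2 fold change -7.04 ± 0.56; edgeR, adjusted p = 2.1e-09). The feature c44867_g1 had 0.25, 0.544 and 1.05 CPM in the WT nucellus, against 265, 3.77 and 9.57 CPM in the WT integument (-7.17 ± 1.27; edgeR, adjusted p = 0.00045). Its size rests on WT integument replicate 1: without that library the tissues differed by -3.41 log2 units (adjusted p = 0.0114, edgeR). With voom in place of edgeR it was not called (adjusted p = 0.106).

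The WT count depended on the library that stood apart. Without WT nucellus replicate 1, 2883 features were called within WT (4.87% of 59170 tested), 899 higher in the nucellus and 1984 lower (edgeR, adjusted p under 0.05). The count was 3233 without WT integument replicate 3. Of the 1969 WT calls higher in the nucellus, 775 (39.4%) were called again, and of the 3219 lower calls 1763 (54.8%) were. The higher calls that were lost had a median log2 fold change of 0.70 without the library and 1.45 with it, and 34 of the 1194 changed sign. The lower calls that were lost had a median of -1.90 without it and -2.26 with it, and 0 changed sign. Calls that were kept hardly moved, with medians of 2.45 without and 2.41 with the library for the higher calls, and of -3.14 and -3.28 for the lower ones.

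The same omission raised the number of MT calls, in which the library takes part only through the filter on low counts, the scaling and the shared estimate of spread. Without it 5213 features were called within MT (8.81%), and all 1564 higher calls and 2580 of the 2589 lower calls were among them. As the mean over both cultivars 9050 were called (15.3%), 3694 higher and 5356 lower. With the pairs as a block as well, edgeR called 10533 features within MT (17.8%), 4988 within WT (8.43%) and 13550 as the mean (22.9%).

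**Figure D3:**
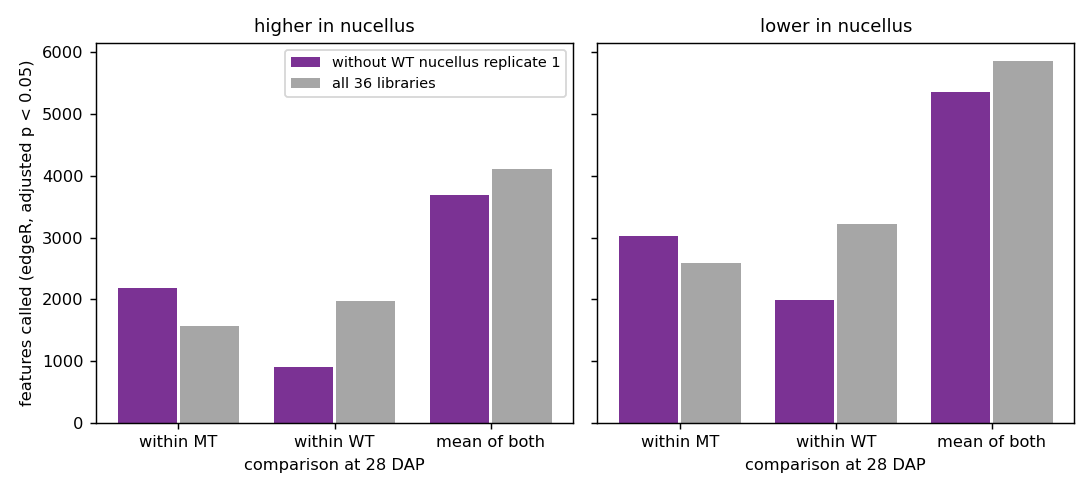
Number of features called at 28 DAP (edgeR, adjusted p under 0.05) within MT, within WT and as the mean of both cultivars, higher in the nucellus (left) and lower in the nucellus (right), without the WT nucellus library of replicate 1 (purple) and with all 36 libraries (grey). Without the library the WT bars are shorter, 899 against 1969 higher and 1984 against 3219 lower, and the MT bars are taller.

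The 100 most abundant features of that library were also abundant in the others. They took 51.7% of its own counts, against 18.3% to 31.7% in the other 5 nucellus libraries and 22.8% to 38.2% in the integument libraries. In TMM-scaled CPM, 38 of the 100 were over 4-fold above the mean of the other nucellus libraries, and the median ratio was 1.8. Among the 6 same-numbered pairs at 28 DAP, the WT pair of replicate 1 had a median absolute difference of 1.05 log2 units between the tissues, against 0.46 to 0.56 in the other 5 pairs. In that pair 4050 features were over 4-fold higher in the nucellus and 9996 over 4-fold lower, against 1426 to 2326 and 2782 to 3472 in the other pairs. The part of this library's composition in the WT calls was not tested beyond leaving it out.

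The pairs give the direction of each feature 6 times. In MT all 3 pairs put 14314 features higher in the nucellus and 15279 lower, 51.6% of those tested together. In WT the numbers were 11000 and 12545, or 41.1%. All 6 pairs put 5887 higher in the nucellus and 7757 lower, 23.8%. Of the 9979 features called as the mean over both cultivars, 8089 (81.1%) had the same sign in all 6 pairs, and 8909 (89.3%) in the 5 pairs that leave out WT replicate 1, where 34.5% of all tested features did. The same libraries made the calls, so these shares only describe them.

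The tissue difference was compared between the cultivars directly. No feature had a difference between MT and WT in its tissue difference that passed the threshold (edgeR, 0 of 57344 called, 0%; 2697 at an unadjusted p under 0.05). Chance alone would on average put a share of 0.05 of the tested features under that bound, which is more than 2697. Voom called 0, and DESeq2 called 2 (0.00349%). The 2 that DESeq2 called, c15180_g1 and c92578_g1, were named after their values were seen. Each was high in WT integument replicate 1 alone, at 31.7 and 19.5 CPM, and at most 1.18 and 1.19 CPM in the other 11 libraries of 28 DAP.

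Of the features called within a cultivar, 2652 were called in both, 63.9% of the MT calls and 51.1% of the WT calls, and 0 had opposite signs. Without WT nucellus replicate 1, 2264 were called in both, 43.4% of the MT calls and 78.5% of the WT calls. Of the MT calls 98.5% had the same sign in WT, and of the WT calls 96.3% had the same sign in MT, against 67.7% of all tested features. The MT calls had a median absolute log2 fold change of 2.45 in MT and, in the same direction, 2.05 in WT. The WT calls had a median of 1.69 in MT and 2.30 in WT. Each median is larger in the cultivar whose libraries chose the features. Across the 57344 tested features the 2 sets of log2 fold changes correlated at 0.669, and at 0.775 across the 28672 features at or above the median level. Features are not independent replicates, and this is a description.

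**Figure D4:**
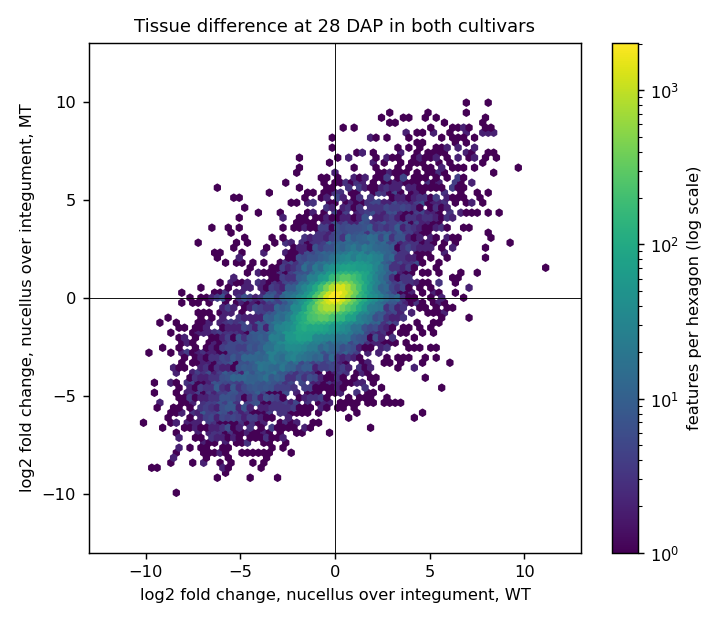
Log2 fold change of nucellus over integument at 28 DAP within MT (vertical axis) against within WT (horizontal axis) for the 57344 tested features, shaded by the number of features in each hexagon on a log scale. Of these features 67.7% have the same sign in both cultivars, and 0 features called in both lie in a quadrant of opposite sign.

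The features with the smallest p-values in that comparison were chosen after values were seen. The feature c30246_g1 had 23.8, 50.4 and 36.5 CPM in the MT nucellus, against 26.8, 35.5 and 29.1 CPM in the MT integument. In WT it had 10.8, 10.5 and 16.6 CPM in the nucellus, against 23.6, 31.2 and 28.7 CPM in the integument. The tissues overlapped in MT and did not in WT, and the difference of the log2 fold changes was 1.41 ± 0.37 (edgeR, unadjusted p = 0.00056, adjusted p = 1). The feature c53307_g1 had a difference of -3.56 ± 0.89 (edgeR, adjusted p = 1), but 89.3 CPM in WT nucellus replicate 1 stood against at most 5.55 CPM in every other library of 28 DAP. Without that library its difference was -0.69.

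Whether the tissue differences of 28 DAP also occur at the neighbouring stages was first read from libraries that played no part in choosing the features. A fit to the 24 libraries of 18 and 32 DAP alone called 16723 of 56099 features (29.8%) between the tissues. Of the 7168 that were higher in the nucellus there, 6783 had a positive difference at 28 DAP, which is 94.6% (exact 95% interval 94.1% to 95.1%, counting error only). Of the 9555 that were lower, 9383 had a negative difference at 28 DAP, 98.2% (97.9% to 98.5%). Both intervals treat features as independent, which they are not, and leave out the spread between libraries. Among all features of the 28 DAP fit, 47.4% had a positive difference. In a fit to the 12 libraries of 28 DAP alone, 30.4% of the nucellus-high and 44.3% of the integument-high features were called again in the same direction, beside 4.4% and 8.08% of all features tested there, and 0 were called in the opposite direction.

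No overlap between the 6 nucellus and the 6 integument libraries was found for 16.4% of these nucellus-high and 27.9% of these integument-high features. Over all features, 2.4% were separate and higher in the nucellus and 4.84% separate and lower. The lists were then limited to features over 4-fold apart at 18 and 32 DAP. Of the 1098 such nucellus-high features, 98% kept their sign at 28 DAP and 39.3% had no overlap between the tissues. Of the 3073 such integument-high features, 99.5% kept their sign and 48.9% had no overlap. Their median difference in mean log2 CPM at 28 DAP was 2.21 for the nucellus-high and -2.55 for the integument-high features. The median edgeR log2 fold changes in the fit that chose them were 3.03 and -3.19. These measures are unlike, so their sizes are not compared. Taken as 1 score per library, the mean log2 CPM of the nucellus-high minus that of the integument-high features was 2.44, 2.56 and 2.44 in the MT nucellus and 2.56, 2.23 and 2.44 in the WT nucellus. In the integument it was -2.84, -2.79 and -2.57 in MT and -2.31, -2.45 and -2.99 in WT. On this score WT nucellus replicate 1 was level with the other nucellus libraries, although both parts of the score were lower in it. They were 0.75 and -1.81, against at least 1.25 and -1.01 in the others. With the lists of all called features its score was 2.39, against 1.88 to 2.08 in the other nucellus libraries.

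Turned round, the fit to 28 DAP alone called 6408 of 51360 features (12.5%). Of these 6391 could be tested at 18 and 32 DAP, 6385 (99.9%) had the same sign there and 6071 were also called there, with 0 called in the opposite direction. Their median log2 fold change, signed by the direction at 28 DAP, was 1.88 at 18 DAP, 2.06 at 28 DAP and 1.73 at 32 DAP. The fit to 18 and 32 DAP called 29.8% of all features it tested. No share of all features with the same sign is set beside the 99.9%.

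The tissue difference at 28 DAP was then set against the mean of those at 18 and 32 DAP in the model of all 36 libraries. No feature passed (edgeR, 0 of 57344 called, 0%; 1800 at an unadjusted p under 0.05), and so no feature met all conditions for a difference present only at 28 DAP. Voom also called 0. By single stages, the model called 10260 features at 18 DAP (17.9%), with 3968 higher in the nucellus (6.92%) and 6292 lower (11%). At 28 DAP it called the 9979 above, and at 32 DAP 7584 (13.2%), with 2759 higher (4.81%) and 4825 lower (8.41%). The tissue difference at 28 DAP differed from that at 18 DAP for 0 features (0%; 2431 at an unadjusted p under 0.05), and from that at 32 DAP for 0 (0%; 1271), by edgeR. DESeq2 called 11 (0.0192%) and 3 (0.00523%) features in these comparisons, and voom 0 in each. Chance alone would on average put a share of 0.05 of the tested features under the unadjusted bound. That is more than the 1800, 2431 and 1271 found by edgeR. A feature not called is not shown to lack a difference between stages.

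Calls by stage were also counted. Of the 9979 features called at 28 DAP, 5318 were called at all 3 stages, and 2390 at neither 18 nor 32 DAP, 1402 of them higher in the nucellus and 988 lower. Of these 2390, 2185 (91.4%) had the same sign at both other stages, and 25 had the opposite sign at both. Their median log2 fold change, signed by the direction at 28 DAP, was 0.46 at 18 DAP, 0.98 at 28 DAP and 0.48 at 32 DAP, the stage that chose them being the highest. Of them 440 had an unadjusted p under 0.05 for the difference between stages and 0 passed the adjusted threshold. No share of all tested features with the same sign at every stage is set beside the 91.4%, which is a description.

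DESeq2 called 3 features in the stage comparison (0.00523%), named after their values were seen, and 1 of them, c61289_g1, only at 28 DAP. That feature had 151 CPM in WT nucellus replicate 1 and at most 0.337 CPM in the other 11 libraries of 28 DAP. The others, c39315_g1 and c57610_g1, had 12.3 and 7.17 CPM in the same library and at most 0.498 and 0.333 CPM in the other 5 nucellus libraries of 28 DAP.

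The features with the smallest p-values in the stage comparison were also chosen after values were seen. The feature c114937_g1 had 18, 27.9 and 26.3 CPM in the MT nucellus and 39.7, 18.8 and 28.2 CPM in the WT nucellus, against 4.96, 4.76 and 6.28 CPM in the MT integument and 10.3, 6.31 and 6.79 CPM in the WT integument. Its log2 fold change between the tissues was 1.14 ± 0.21 at 18 DAP, 2.03 ± 0.21 at 28 DAP and 0.99 ± 0.21 at 32 DAP, so the tissues differed at each stage and by more at 28 DAP, although the difference between stages did not pass the adjusted threshold (edgeR, unadjusted p = 0.00067, adjusted p = 1). The feature c42720_g1 had 4.48, 2.47 and 3.08 CPM in the MT nucellus and 0.5, 4.35 and 2.87 CPM in the WT nucellus, against 13.8, 5.84 and 6.17 CPM in the MT integument and 6.79, 8.47 and 6.67 CPM in the WT integument. Its log2 fold change was 0.37 ± 0.37 at 18 DAP, -1.42 ± 0.37 at 28 DAP and 0.03 ± 0.37 at 32 DAP (edgeR, adjusted p of the stage comparison = 1).

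**Figure D5:**
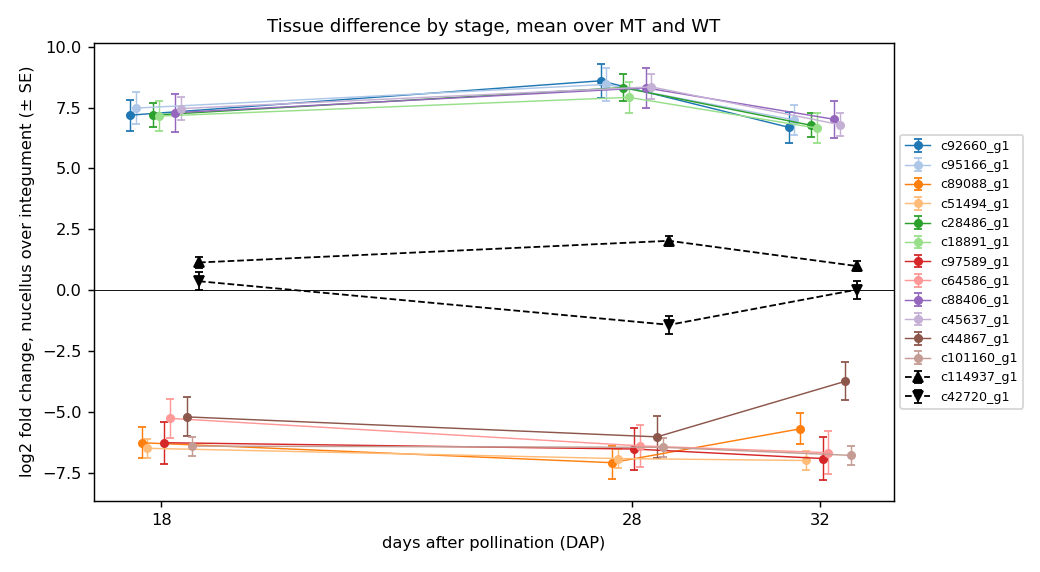
Log2 fold change of nucellus over integument (± SE, mean over MT and WT) at 18, 28 and 32 DAP for the 12 features named by size at 28 DAP (solid lines) and for c114937_g1 and c42720_g1, which had the smallest p-values in the stage comparison (dashed black lines). Points are shifted sideways to show the error bars. The 12 keep their side of 0 at every stage, c92660_g1 for example at 7.19, 8.60 and 6.69, whereas c42720_g1 lies near 0 at 18 and 32 DAP.

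The difference between 28 and 18 DAP changed with the model. Without WT nucellus replicate 1, edgeR called 3 features (0.00507%), c12307_g1, c101698_g1 and c116272_g1, named after their values were seen. In each, the ratio of nucellus to integument was lower at 28 than at 18 DAP. The gap narrowed for c101698_g1, and c12307_g1 went from higher in the nucellus to mostly lower. For c116272_g1 the gap widened, from 7.58 to 13.6 CPM against 8.99 to 17.5 CPM in the integument at 18 DAP. At 28 DAP it had 1.79 to 5.56 CPM in the nucellus libraries kept, against 6.85 to 16.8 CPM. With same-numbered libraries as a block and without that library it called 142 (0.24% of 59170), whereas with the block and all 36 libraries it called 0 (0%), so the 142 needed both changes. The block also pairs the libraries of 18 DAP, where MT replicate 1 of the nucellus correlated with its same-numbered integument library at 0.053, against 0.08 with the integument library of replicate 2. The other same-numbered pairs of 18 DAP correlated at 0.135 to 0.402. Of the 142, the ratio of nucellus to integument was higher at 28 than at 18 DAP for 89 and lower for 53. Because they needed both changes and that pairing, the 142 are not described further as a set.

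The feature c51117_g1 was 1 of 3 called between 28 and 18 DAP by limma voom with quality weights, and was chosen after its values were seen. It was also among the features called with the block and without WT nucellus replicate 1. At 18 DAP it had 18.3, 23.8 and 23 CPM in the MT nucellus and 19.3, 27.9 and 15.3 CPM in the WT nucellus, against 1.77, 2.62 and 1.83 CPM in the MT integument and 4.78, 5.61 and 2.13 CPM in the WT integument. At 28 DAP it had 8.35, 8.89 and 9.77 CPM in the MT nucellus and 11.7, 3.75 and 3.26 CPM in the WT nucellus, against 5.46, 5.3 and 5.8 CPM in the MT integument and 5.28, 5.81 and 8.62 CPM in the WT integument. The tissues were fully apart at 18 DAP and overlapped at 28 DAP, by way of the WT libraries. In edgeR, its tissue difference at 28 DAP minus that at 18 DAP was -2.54 ± 0.59, which did not pass the threshold (adjusted p = 0.74). The others of the 3, c28106_g1 and c56057_g1, overlapped between the tissues at 18 DAP and were lower in the nucellus within each cultivar at 28 DAP. At 28 DAP c28106_g1 had 11.3 to 18.7 CPM in the MT nucellus, against 19.7 to 34.8 CPM in the MT integument. In WT it had 4.92 to 9.73 CPM, against 17.1 to 18.2 CPM. EdgeR with all 36 libraries called neither.

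Few features met a strict rule for detection in 1 tissue alone. At 28 DAP 1 feature reached 1 CPM in all 6 nucellus libraries with 0 counts in all 6 integument libraries, and 1 showed the reverse. Both were looked up after values were seen, and their CPM are on unscaled library totals. The first, c92033_g1, had 6.95, 6.87 and 7.79 CPM in the MT nucellus and 1.63, 1.98 and 1.21 CPM in the WT nucellus, which put it at least 27.7-fold higher there than a floor of 3 counts per integument library. The reverse, c92411_g1, had 1.28, 1.55 and 1.43 CPM in the MT integument and 1.72, 1.31 and 2.92 CPM in the WT integument, and was at least 10.5-fold lower in the nucellus, by the same floor. Neither stayed at 0 in the other tissue at 18 and 32 DAP, where c92033_g1 had up to 2 counts in an integument library and c92411_g1 up to 2 in a nucellus library. With up to 3 counts allowed in each library of the other tissue, 12 nucellus and 27 integument features met the rule. The demand for 1 CPM in all 6 libraries keeps these numbers low. Of the 9979 features called over both cultivars, 66 higher in the nucellus had 0 counts in all 6 integument libraries. Another 129, lower in the nucellus, had 0 counts in all 6 nucellus libraries.

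Features of one tissue were also summed in the other. The 312 features over 16-fold higher in the nucellus at 18 and 32 DAP summed to between 18800 and 20600 CPM in the nucellus at 28 DAP, as means of each cultivar, and to between 158 and 295 CPM in the 6 integument libraries, 0.838% to 1.43% of the nucellus level of the same cultivar. The 940 features over 16-fold lower in the nucellus summed to between 353 and 571 CPM in the 6 nucellus libraries, against means of 11300 and 11700 CPM in the integument, 3.13% to 4.86% of it. At 18 DAP the shares were 0.63% to 1.52% for the nucellus-high features in integument libraries and 2.8% to 3.88% for the integument-high features in nucellus libraries. At 32 DAP they were 1.03% to 4.06% and 2.78% to 4.83%. The features were chosen for their differences at 18 and 32 DAP, so low shares at those stages follow from the choice. The source of these low levels was not tested.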

How the data were processed

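Per the labels' protocols, the small amounts of RNA from captured cells were copied into cDNA from random primers, amplified linearly (SPIA) and read as paired ends on 2 Illumina models, with no record of which library ran on which. Per the submitters' processing notes, cutadapt, Bowtie2, RSEM and DESeq were used, with no versions, and the alignment reference was not given in the sources used. The deposited expected counts, which RSEM estimates per feature, were whole numbers in every cell of the table, and they were taken as rounded by the authors, a step that none of the sources records. The authors also deposited FPKM values, which scale counts by feature length and library total, and these served for levels and for an alternative test. RSEM divides reads among similar sequences, so a feature with a close copy may share its counts.

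Of 128861 features, 34664 were at 0 everywhere, and filterByExpr over the 12 groups kept 57344, with 99.72% to 99.95% of each library's counts. Libraries were TMM-scaled and 1 quasi-likelihood model with a mean per group was fitted to all 36 (edgeR 4.0.16, R 4.3.3, robust dispersions, common biological coefficient of variation 0.44). P-values were adjusted by Benjamini-Hochberg over all tested features and called under 0.05. The SE of a log2 fold change comes from the F statistic, and log2 CPM used a prior count of 2. Alternatives used DESeq2 1.42.0, limma 3.58.1 with voom or log2 FPKM, other scalings and filters, and the omission of each library in turn.

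The labels number the libraries of each group 1 to 3 without saying what a number marks. After subtraction of group means, same-numbered nucellus and integument libraries of a cultivar at 28 DAP correlated across features at 0.196 to 0.473 in all 6 pairs (median 0.278), against -0.392 to 0.169 for different numbers. Deviations from a group mean cancel out within the group, so positive values for same numbers bring mostly negative ones for different numbers. Differences within pairs were therefore read at 28 DAP only. Over all stages 17 of 18 pairs exceeded 0.1 and the lowest, MT replicate 1 at 18 DAP, was 0.053. The block in the edgeR model was not limited to 28 DAP and also paired the libraries of 18 DAP. All counts given with the block, those for 28 DAP included, come from that wider pairing.

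Features were named by a rule: called, at or above the median of mean log2 CPM, no overlap between the libraries compared, and the 2 largest log2 fold changes in each direction, any already named being passed over. Others are said to be chosen after their values were seen. The libraries compared, the lists and the tests were chosen with earlier results of these data known.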

Additional observations from a re-analysis of the deposited data

Results flagged for a closer look

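In each tissue at 28 DAP, 6 libraries gave 38 sets of 6 values. In 4 of them 1 library lay farther from the rest than Dixon's 95% critical value of 0.625 for the gap over the range. Chance alone does so in about 1 of 20 independent sets of normal values. These sets share libraries, and many features were named for large differences in them, so that rate does not hold for them. The WT nucellus library of replicate 1 accounted for 3 of the 4: its 10 most abundant features took 33.8% of its counts, c92660_g1 had 459 CPM in it and c45637_g1 had 473 CPM. Without that library the log2 fold change of c45637_g1 within WT was 7.65 ± 0.68, against 8.23 ± 0.71 with it (edgeR, adjusted p = 5.1e-08 and 1e-08), and c92660_g1 was still called as given above. The fourth was c44867_g1, at 265 CPM in WT integument replicate 1, where the other 5 integument libraries reached at most 56.8 CPM.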

How the results depend on the processing

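Counts of called features were recomputed under 25 other settings (48 for comparisons of stages), the lists from 18 and 32 DAP under 1 and the features detected in 1 tissue under 2. The 9979 calls over both cultivars ranged from 6408, with the 12 libraries of 28 DAP alone, to 13743 with the replicate block, and from 8186 to 10371 as single libraries were left out. MT calls numbered 7692 with the replicate block, 10533 with the block and without WT nucellus replicate 1, 11098 with voom quality weights, 2385 with 28 DAP alone, 2182 to 5213 with 1 library left out and 5478 without the first WT pair. WT calls numbered 7892 with the replicate block, 2423 without the first WT pair, 2569 with 28 DAP alone, and 2883 to 6011 with 1 library left out (3233 without integument replicate 3). On log2(FPKM + 1), 938 WT features were higher in the nucellus and 3101 lower, 23.2% higher in place of 38%. For MT they were 2088 and 2344, 47.1% in place of 37.7%, and on log2(FPKM + 0.1) 48.4%. DESeq2 called 2 features between cultivars, 3 in the stage comparison, 1 only at 28 DAP and 3 between 28 and 32 DAP, and all other settings called 0 in these. Alternatives for single stages were added after the data were seen. Between 28 and 18 DAP they called 142 with the block and without WT nucellus replicate 1, 0 with the block alone, 11 with DESeq2, 6 on log2(FPKM + 1), 3 with voom quality weights, 1 on log2(FPKM + 0.1), 1 without the first WT pair, and 0 to 3 with 1 library left out (3 without WT nucellus replicate 1, 1 without MT integument replicate 1 of 18 DAP). Limited to features over 4-fold, the lists from 18 and 32 DAP kept their sign for 98% and 99.5%. By the 1 CPM rule, features detected in the nucellus alone numbered 2 without WT nucellus replicate 1 and 12 with up to 3 counts allowed. Those in the integument alone numbered 27 with up to 3 counts allowed. The 12 features named by rule kept their side of the threshold in 297 of 300 values, and the other 3 were c44867_g1 (adjusted p up to 0.11). The causes were not tested.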

Other observations

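Feature length implied by the deposited counts and FPKM differed between the sets called at 28 DAP. The features higher in the nucellus had a median implied length of 2160 bases (middle 50% from 1630 to 2830, from 3957 of 4115 features), those lower in the nucellus 1810 bases (1260 to 2420, from 5552 of 5864), and features not called 1940 bases (1410 to 2570). Their median levels also differed, at 5.38 FPKM for the features higher in the nucellus, 3.14 FPKM for those lower and 2.5 FPKM for those not called. The length differences were not tested.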
